A study of Homo sapiens with 30 samples.

Results

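H19, IGF2, IGF2R, CDKN1C, PHLDA2, PEG10, MEG3 and MEST are genes reported as imprinted in human or mouse. These 8 were examined out of 38122 genes in a table of normalised read counts from 3 established human cancer lines. They were taken as named genes, with results of these libraries already known: H19 had been selected on its difference between pH 6.5 and pH 7.4, which ran in opposite directions between the lines, so its levels and differences are given as a description with no test. FaDu came from a squamous carcinoma of the hypopharynx, HCT116 from a carcinoma of the colon, and SiHa from a squamous carcinoma of the uterine cervix. Each line was grown at pH 6.5, after at least 1 month at that pH, or at pH 7.4, and each of the 6 groups has 5 libraries. All groups shared a medium with 10 mM glucose, 2 mM glutamine and 10% serum, with HEPES and PIPES as buffers at 25 mM each, and no group carried a genetic change made for the study. Separate cultures are not stated for the libraries within a group, nor is the number of adapted populations per line, so p-values speak only of the spread among these libraries, which may be technical.

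Imprinted genes are read mainly from the copy inherited from one parent, and methylation of DNA at control regions marks which copy is silent. H19 and IGF2 share one such region: on the copy where it is unmethylated, CTCF binds there and enhancers act on H19, and on the methylated copy they act on IGF2. IGF2 is a growth factor of the fetus that is often raised in tumours, IGF2R removes it from the cell surface, and CDKN1C and PHLDA2 restrain growth. Read counts do not separate the parental copies, so nothing below is a measure of imprinting itself.

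Reads assigned to genes numbered 21.02 to 55.68 M per library. To check the line of origin, 24 genes restricted to FaDu, 33 to HCT116 and 28 to SiHa were used, none of them among the 8 imprinted genes. In the 21 libraries kept for the comparisons, the median of the line's own genes was 78.8 to 107% of their usual level, and that of another line's genes was at most 0.0656%. These genes were chosen on FaDu pH 6.5, HCT116 pH 7.4 and SiHa pH 6.5, whose means are the usual level. Values in those groups were thus largely set by the choice. Elsewhere the line's own genes stood at 98.7% in FaDu pH 7.4 replicate 1 and 96.5 and 87.8% in HCT116 pH 6.5 replicates 1 and 3. In SiHa pH 7.4 replicates 1, 4 and 5 they stood at 78.8, 81.4 and 79.1%. Libraries labelled FaDu pH 7.4 replicates 2 to 5 carried the HCT116 genes at 77.5, 28.2, 39.9 and 58.1% of their HCT116 level and the FaDu genes at 11.1, 65.4, 49.9 and 27.7%. In those labelled HCT116 pH 6.5 replicates 5, 6 and 7 the SiHa genes stood at 35.9, 103 and 100% of their SiHa level and the HCT116 genes at 49.95, 1.76 and 0.501% of theirs. The mesenchymal filament gene VIM stood at 2.04, 28.4 and 165 normalised counts in SiHa pH 7.4 replicates 1, 4 and 5. At pH 6.5 it was at most 5.60 in SiHa. In SiHa pH 7.4 replicates 6 and 7 it stood at 2817 and 2863. The SiHa genes were there at 70.9 and 66.0% of their SiHa level, and another line's genes at no more than 0.0419%. These 9 libraries are kept apart below, which leaves 5 against 1 in FaDu, 2 against 5 in HCT116 and 5 against 3 in SiHa, and values with all libraries as labelled are given beside the results whose call or direction they change or in the closing section. Of the markers of the tissue of origin, KRT5, a keratin of squamous epithelium, stood at 225800 to 356737 in FaDu at pH 6.5 but at 13.7 to 72.8 in SiHa at pH 6.5, and the intestinal regulator CDX2 was present at 821 and 1030 in HCT116 at pH 6.5. CDX1, another intestinal regulator, was at 0 in all kept HCT116 libraries.

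H19 (ENSG00000130600) is a long RNA that is not translated, and it is the precursor of miR-675. In FaDu at pH 6.5 it stood at 16165, 123424, 65865, 67678 and 98085 normalised counts in the 5 libraries, against 9496 in the single kept library at pH 7.4. All pH 6.5 libraries of FaDu were above that library, and replicate 1 was the lowest of them by a wide margin. H19 made up 0.0415 to 0.350% of the reads of the FaDu libraries at pH 6.5, against 0.0251% at pH 7.4. Set side by side by number, replicate 1 differed 1.70-fold between the pH values, while the ratio of the group means was 7.82. Counts are relative to the library, so fewer cells that read H19 and less H19 RNA per cell cannot be told apart.

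In HCT116 the direction was the opposite. H19 stood at 157 and 115 in the kept libraries at pH 6.5, against 238, 308, 628, 399 and 364 at pH 7.4, and the groups did not overlap. In SiHa it stood at 70.1, 51.8, 53.8, 84.4 and 122 at pH 6.5, against 430, 435 and 381 at pH 7.4, again with no overlap. The log2 difference, pH 6.5 minus pH 7.4, was 2.69 ± 0.93 (SE) in FaDu, −1.44 ± 0.30 in HCT116 and −2.50 ± 0.26 in SiHa, on the scale of log2(normalised count + 1). With all libraries as labelled it was 6.53 in FaDu, −2.07 in HCT116 and −2.56 in SiHa. The direction in each line was the same with the libraries kept apart, but its size changed in FaDu and, to a lesser extent, in HCT116. The HCT116 reads in FaDu pH 7.4 come from a line with less H19, at a mean of 388 against 9496. The SiHa reads in HCT116 pH 6.5 do too, at 76.4 in SiHa pH 6.5 against 136. Both shift the difference in the direction already seen, so the unchanged sign is no check in these lines. In FaDu the size was not that of mixing alone. Weighted by the share of each line, the FaDu pH 7.4 libraries with HCT116 reads would hold H19 at 1358 to 6317. They held 133 to 722, and the source of this gap was not tested.

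By group mean, H19 was ordered FaDu pH 6.5 (74243), FaDu pH 7.4 (9496), SiHa pH 7.4 (415), HCT116 pH 7.4 (388), HCT116 pH 6.5 (136) and SiHa pH 6.5 (76.4). SiHa and HCT116 at pH 7.4 overlapped in this order, and so did HCT116 and SiHa at pH 6.5. At pH 6.5 FaDu stood far above the other lines in all of its 5 libraries. At pH 7.4 its place rests on 1 library, and the 4 others of that label, which hold HCT116 reads as well, had 133 to 722 normalised counts of H19, on both sides of the SiHa mean of 415.

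**Figure D1:**
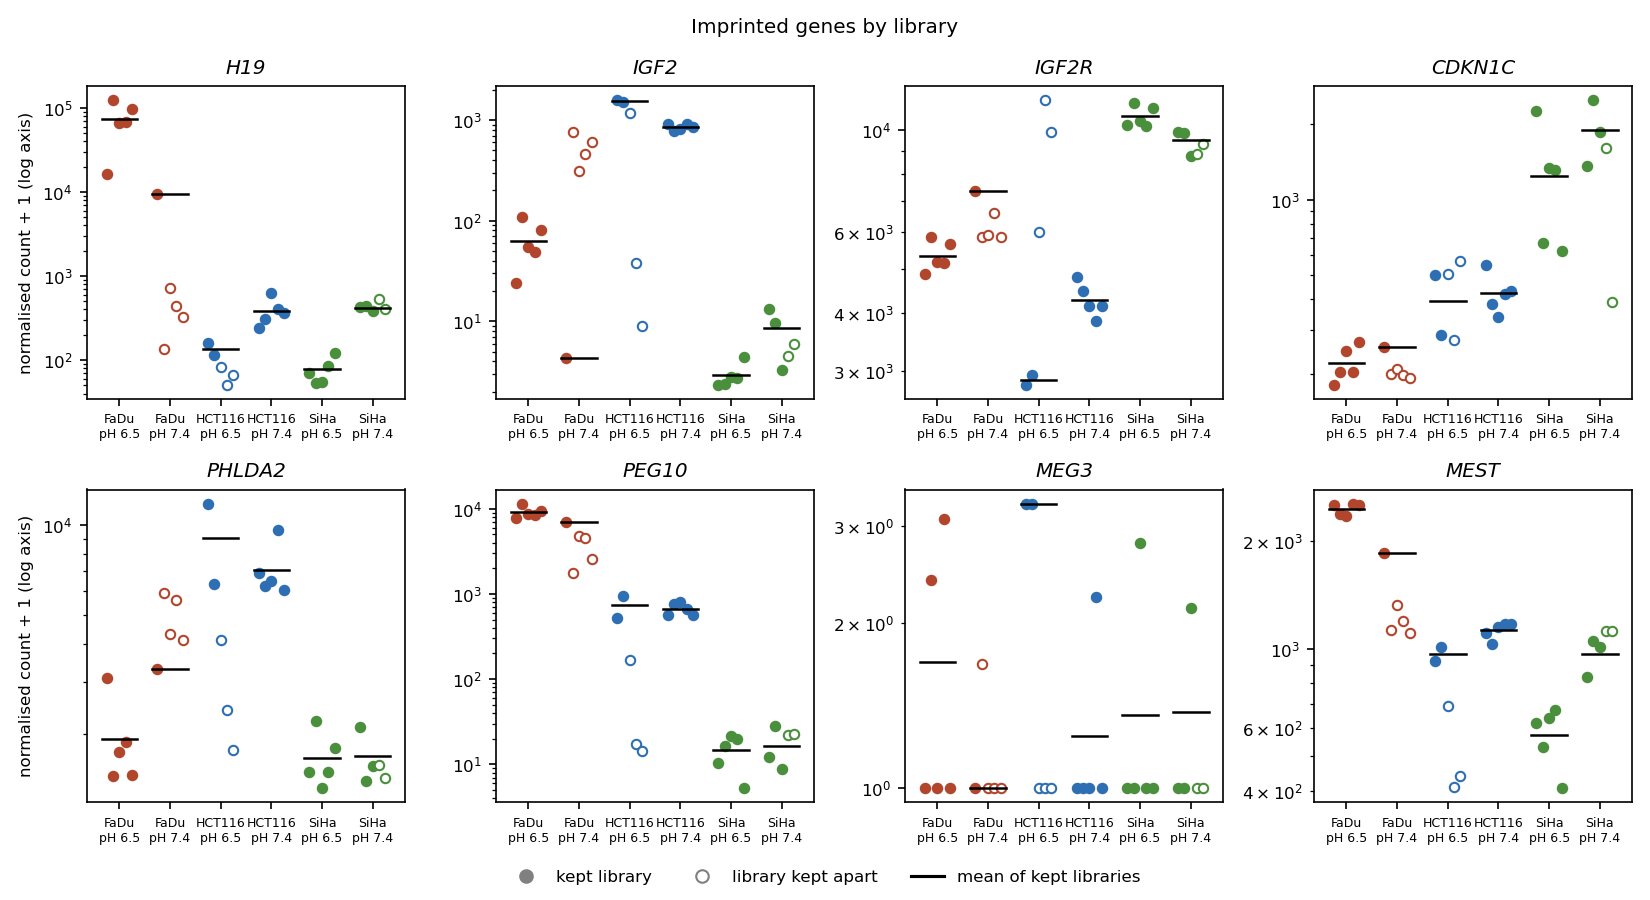
Normalised count plus 1 (log axis, a separate range for each gene) of the 8 imprinted genes in every library, by line and pH. Filled circles are the 21 kept libraries, open circles the 9 kept apart, and bars the mean of the kept libraries. H19 in FaDu lies between 16165 and 123424 at pH 6.5, above all other groups.

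The window around the start of H19 is shown with those of IGF2R and MEST, the other members with a promoter in the reference whose pH difference varied between the lines. Each runs 300 bases, from 250 before to 50 after the start of the gene in RefSeq, 5′ to 3′ on the gene's strand. The build is GRCh38.p14, while the reads were placed on GRCh37. CpG dinucleotides, at which DNA can be methylated, are in capitals. H19 lies on the minus strand at chr11:2001217-2001516, IGF2R on the plus strand at chr6:159968832-159969131 and MEST on the plus strand at chr7:130485925-130486224.
H19: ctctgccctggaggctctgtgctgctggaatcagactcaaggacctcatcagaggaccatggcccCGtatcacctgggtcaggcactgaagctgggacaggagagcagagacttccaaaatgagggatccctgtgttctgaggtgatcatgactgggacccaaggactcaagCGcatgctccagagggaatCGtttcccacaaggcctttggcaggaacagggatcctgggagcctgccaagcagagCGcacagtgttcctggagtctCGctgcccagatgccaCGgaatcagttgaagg
IGF2R: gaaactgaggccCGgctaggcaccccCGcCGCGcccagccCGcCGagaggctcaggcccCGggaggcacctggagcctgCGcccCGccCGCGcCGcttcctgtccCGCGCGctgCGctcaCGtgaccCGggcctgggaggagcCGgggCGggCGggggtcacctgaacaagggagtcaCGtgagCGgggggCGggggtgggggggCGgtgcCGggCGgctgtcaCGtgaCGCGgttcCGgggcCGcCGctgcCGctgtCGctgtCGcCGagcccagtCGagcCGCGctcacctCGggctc
MEST: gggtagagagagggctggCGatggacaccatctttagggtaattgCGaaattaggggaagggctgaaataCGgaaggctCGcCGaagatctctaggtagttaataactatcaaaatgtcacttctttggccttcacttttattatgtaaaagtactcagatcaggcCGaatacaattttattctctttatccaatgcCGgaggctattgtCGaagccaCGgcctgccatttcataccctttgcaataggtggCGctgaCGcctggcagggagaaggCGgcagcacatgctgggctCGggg
The H19 window held 6 CpG, the MEST window 13 and the IGF2R window 41, against a median of 14 over 35116 windows of this length, of which 36.8% held as many as H19 or fewer and 94.2% as many as IGF2R or fewer. The G+C-rich box CCGCCC, searched on both strands, was in the IGF2R window and in 45.0% of all windows, and these letters were not in the H19 and MEST windows. No methylation was measured in this series, and whether the windows shown lie in the regions that control imprinting was not examined.

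The transcripts of H19 and MEST also give rise to microRNAs, short RNAs that repress targets through their seed. The mature sequences are printed from RefSeq (GRCh38.p14), 5′ to 3′, with the seed, bases 2 to 8, in capitals, because H19 was higher at pH 6.5 in FaDu and lower in HCT116 and SiHa, and because the pH effect on MEST differed between lines.
miR-675-5p: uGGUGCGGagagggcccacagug
miR-675-3p: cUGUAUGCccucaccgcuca
miR-335-5p: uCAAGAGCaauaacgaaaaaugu
miR-335-3p: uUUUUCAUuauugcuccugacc
The first pair lies inside H19 on chromosome 11, minus strand, and the second inside MEST on chromosome 7, plus strand, and no seed is shared among the 4. The counts are of the host genes, so the levels of these microRNAs are not known from them.

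IGF2 (ENSG00000167244), the ligand, lies next to H19. In HCT116 it rose at pH 6.5, to 1578 and 1510 normalised counts, against 926, 779, 822, 924 and 862 at pH 7.4. The groups did not overlap, and the log2 change was 0.84 ± 0.13 (limma adjusted p = 0.00099), which was not called in 1 fit over the kept libraries of all lines (adjusted p = 0.21). H19 was lower and IGF2 higher at pH 6.5 in this line. IGF2-AS, which overlaps IGF2 on the other strand, stood at 21.7 and 28.6 at pH 6.5 and at 6.10 to 13.8 at pH 7.4. With no strand setting known the reads of the pair cannot be told apart, although IGF2-AS was low beside the difference in IGF2.

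In FaDu IGF2 stood at 22.9, 107, 54.2, 48.0 and 79.5 at pH 6.5, against 3.30 in the single kept library at pH 7.4. That library held 3 reads of IGF2, and the 5 libraries at pH 6.5 held 356, a ratio of 20.0 with a 95% exact interval of 6.78 to 97.3 that covers counting error only. The log2 change was 3.71 ± 0.72 (limma adjusted p = 0.031) and rests on 1 library at pH 7.4, whose spread was assumed to be that of the pH 6.5 libraries. The call was lost in edgeR's quasi-likelihood test on recovered reads (adjusted p = 0.064) and when any one of replicates 2 to 5 at pH 6.5 was left out (adjusted p = 0.054 to 0.090). H19 and IGF2 both had their lowest FaDu value at pH 6.5 in replicate 1 and their highest in replicate 2, followed by replicate 5.

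In SiHa IGF2 was close to absent, at 1.35, 1.40, 1.79, 1.72 and 3.42 at pH 6.5 and at 12.2, 8.52 and 2.26 at pH 7.4. The groups overlapped and the gene was below the level of 10 needed for a test. As labelled, the IGF2 change in FaDu turned to −1.80 (limma adjusted p = 0.25), with 310 to 766 in the libraries that carry HCT116 reads. In HCT116 it turned to −1.79 (limma adjusted p = 0.34), with 1187, 37.0 and 7.92 in the libraries that carry SiHa reads.

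IGF2R (ENSG00000197081), the receptor that takes IGF2 to the lysosome for breakdown and that also carries lysosomal enzymes, fell at pH 6.5 in HCT116. It stood at 2799 and 2943 at pH 6.5, against 4790, 4470, 4137, 3840 and 4142 at pH 7.4, a log2 change of −0.57 ± 0.12 (limma adjusted p = 0.0067). The groups did not overlap, and ligand and receptor moved in opposite directions in this line. AIRN, the antisense RNA that overlaps IGF2R, was at most 5.60 in every kept library, so it adds few reads to IGF2R even without strand. With all libraries as labelled, SiHa reads included, the change in HCT116 turned to 0.40 (adjusted p = 0.44).

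In FaDu IGF2R stood at 4862, 5838, 5173, 5151 and 5639 at pH 6.5, against 7351 at pH 7.4, and the log2 change of −0.47 ± 0.13 did not pass (limma adjusted p = 0.074), though it did without replicate 1 at pH 6.5 (adjusted p = 0.013), in DESeq2 (adjusted p = 0.043) and, at −0.24, with the libraries as labelled (adjusted p = 0.046). In SiHa it stood at 10254, 11425, 10467, 10178 and 11135 at pH 6.5 and at 9887, 9823 and 8776 at pH 7.4. The SiHa groups did not overlap, but the log2 change of 0.17 ± 0.08 did not pass either (limma adjusted p = 0.13), while with all libraries as labelled it was 0.20 and passed (adjusted p = 0.030).

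MEST (ENSG00000106484), a gene for a hydrolase-like protein that is read from the paternal copy, fell at pH 6.5 in SiHa. It stood at 617, 527, 637, 674 and 406 at pH 6.5, against 832, 1051 and 1008 at pH 7.4, a log2 change of −0.77 ± 0.17 (limma adjusted p = 0.0061). In FaDu the values were 2523, 2385, 2352, 2544 and 2527 at pH 6.5, against 1855 at pH 7.4, and the log2 change of 0.41 ± 0.11 did not pass (limma adjusted p = 0.067). All pH 6.5 libraries of FaDu lay above the single pH 7.4 library. The change passed without replicate 1 at pH 6.5 (adjusted p = 0.011), in DESeq2 (adjusted p = 0.025) and, at 0.93, with the libraries as labelled (adjusted p = 0.00070). In HCT116 MEST stood at 922 and 1007 at pH 6.5 and at 1102, 1032, 1151, 1171 and 1173 at pH 7.4, with a log2 change of −0.22 ± 0.13 (limma adjusted p = 0.25).

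PEG10 (ENSG00000242265), a gene of retrotransposon origin needed for the placenta, had a different level in each line and was not called by pH in any of them. In FaDu it stood at 7771 to 11418 at pH 6.5 and 6904 at pH 7.4, in HCT116 at 520 and 943 at pH 6.5 and 557 to 801 at pH 7.4, and in SiHa at 4.27 to 20.6 at pH 6.5 and 7.90 to 27.5 at pH 7.4. The log2 changes were 0.39 ± 0.20, 0.08 ± 0.23 and −0.15 ± 0.53 in FaDu, HCT116 and SiHa, with limma adjusted p = 0.25, 0.85 and 0.85. As labelled the change in FaDu was 1.30 and passed (adjusted p = 0.0083). SGCE, which lies head to head with PEG10 in the genome and is also imprinted, rose in HCT116 at pH 6.5, to 773 ± 74.1 against 346 ± 46.0 at pH 7.4 (SD, n = 2 and 5), a log2 change of 1.16 ± 0.17 (limma adjusted p = 0.00060). As labelled, with SiHa reads in the pH 6.5 group, the SGCE change turned to −2.02 and was not called (adjusted p = 0.31).

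PHLDA2 (ENSG00000181649), which restrains placental growth, stood at 3091, 1448, 1749, 1881 and 1468 in FaDu at pH 6.5, against 3297 at pH 7.4. Replicate 1 at pH 6.5 was close to the pH 7.4 library and the others were well below it, and the log2 change of −0.83 ± 0.37 did not pass (limma adjusted p = 0.19). Without replicate 1 at pH 6.5 it was −1.02 and passed (adjusted p = 0.0028), and as labelled it was −1.299 and passed (adjusted p = 0.0016). PHLDA2 stood at 11756 and 6353 in HCT116 at pH 6.5 and at 6060 to 9614 at pH 7.4, and at 1322 to 2215 in SiHa at pH 6.5 and 1396 to 2122 at pH 7.4, with overlap in both lines and no call (log2 0.31 ± 0.23 and −0.02 ± 0.18, limma adjusted p = 0.36 and 0.93).

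CDKN1C (ENSG00000129757), the cyclin-dependent kinase inhibitor p57, was not called in any line. In SiHa it varied widely, at 2256, 669, 1341, 1311 and 621 at pH 6.5 and 1358, 2497 and 1862 at pH 7.4, and the log2 change was −0.74 ± 0.37 (limma adjusted p = 0.15). Without replicate 1 at pH 6.5, the highest, the change was −0.999 and passed (adjusted p = 0.026). It stood at 181 to 270 in FaDu at pH 6.5 and 256 at pH 7.4, and at 287 and 499 in HCT116 at pH 6.5 and 337 to 547 at pH 7.4, with log2 changes of −0.23 ± 0.25 and −0.14 ± 0.23. Each of these groups overlapped its counterpart.

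MEG3 (ENSG00000214548), a long RNA that is not translated and is read from the maternal copy, was not detectable at a useful level in any line. It reached at most 2.29 normalised counts, seen in HCT116 at pH 6.5 as 2 reads in each library, and was at 0 in 14 of the 21 kept libraries. At 0 reads a library may still hold up to 3 by counting error alone, which is 1.90 to 5.01 normalised counts, so no difference with pH could be read for this gene.

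**Figure D2:**
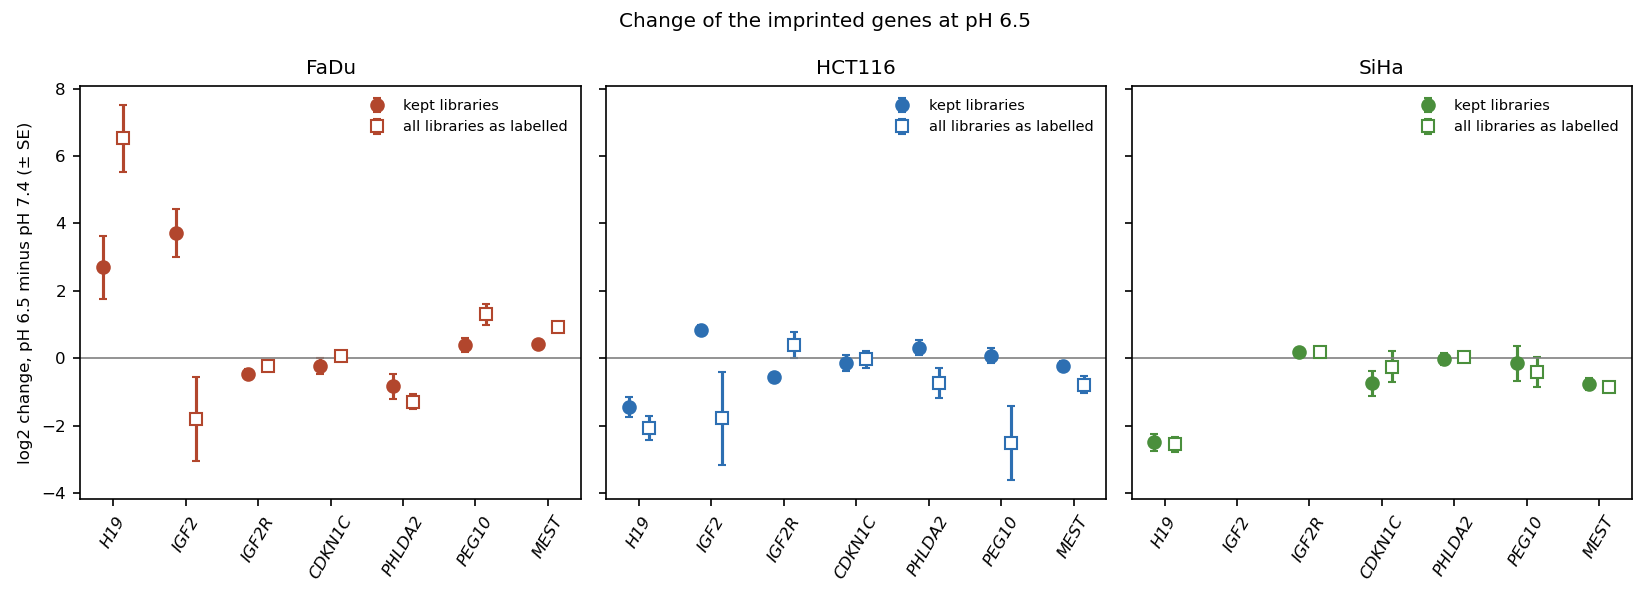
Log2 change, pH 6.5 minus pH 7.4, with its standard error for 7 of the imprinted genes in each line. Filled circles are the kept libraries and open squares all libraries as labelled, and IGF2 in SiHa is missing because it was below the level for testing. H19 is 2.69 in FaDu against −1.44 in HCT116 and −2.50 in SiHa, and IGF2 changes sign with the set of libraries in FaDu and HCT116.

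Counts of calls over the members other than H19 are given beside the share of all genes, with nothing read from them, since the members were named with these results known. In FaDu 1 of 6 tested members rose and 0 fell by limma, against 4.24% of all genes that rose and 3.12% that fell. At an unadjusted p under 0.05, 2 were higher and 1 lower, edgeR called 0 and DESeq2 called 2 higher and 1 lower. As labelled 4 of the 6 were called in FaDu, against 46.3% of all genes. In HCT116 1 of 6 rose and 1 fell, against 9.11 and 11.1%, and as labelled 0 were called by limma, against 18.2%, with 2 at an unadjusted p under 0.05. In SiHa 0 of 5 rose and 1 fell by limma, by edgeR and by DESeq2, with the same counts at an unadjusted p under 0.05, against 15.0 and 16.2%. As labelled 2 of the 5 were called in SiHa, against 40.8%.

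Whether the pH effect itself differed between the lines was tested for these 6 genes by limma's F-test for interaction over the 21 kept libraries. It passed for IGF2 (adjusted p = 0.00011), IGF2R (adjusted p = 0.00042) and MEST (adjusted p = 0.0018), which is 3 of 6 against 33.1% of all genes. With all libraries as labelled it passed for 2 of 6, MEST (adjusted p = 1.47e-05) and PEG10 (adjusted p = 0.017), and no longer for IGF2 (adjusted p = 0.93) or IGF2R (adjusted p = 0.26), against 42.5% of all genes. In the kept libraries it did not pass for PHLDA2 (adjusted p = 0.12, or 0.024 without FaDu pH 6.5 replicate 1 and 0.037 without HCT116 pH 6.5 replicate 3), CDKN1C (adjusted p = 0.53) or PEG10 (adjusted p = 0.79). For MEST the FaDu values were higher at pH 6.5 and those of SiHa and HCT116 lower, the same directions as for H19, although of the 3 within-line changes of MEST the one in SiHa passed. For IGF2R the values at pH 6.5 were lower in FaDu and HCT116 and higher in SiHa.

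Differences between the lines were larger than those with pH for most members. At pH 6.5, FaDu differed from SiHa in 5 of 6 members, against 73.7% of all genes. IGF2 was higher in FaDu by 4.30 ± 0.35, PEG10 by 9.42 ± 0.33 and MEST by 2.13 ± 0.11 on the log2 scale, while CDKN1C and IGF2R were lower, at −2.33 ± 0.27 and −1.01 ± 0.07 (each limma adjusted p at most 1.25e-07). PHLDA2 did not differ detectably, at 0.17 ± 0.20 (limma adjusted p = 0.45). At pH 7.4, HCT116 differed from SiHa in 5 of 6, against 72.1% of all genes. IGF2 was higher in HCT116 by 6.86 ± 0.41, PEG10 by 5.51 ± 0.37 and PHLDA2 by 2.06 ± 0.23, and CDKN1C and IGF2R were lower, at −2.14 ± 0.31 and −1.15 ± 0.09 (each limma adjusted p at most 3.15e-06). MEST did not differ detectably between HCT116 and SiHa at pH 7.4, at 0.23 ± 0.13 (limma adjusted p = 0.11).

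The libraries labelled FaDu pH 7.4 replicates 2 to 5 hold reads of 2 lines, so each gene was set beside a weighted sum: the share of FaDu genes times the value in FaDu pH 7.4 replicate 1, plus the share of HCT116 genes times the mean of HCT116 at pH 7.4. This comparison was added after the values were seen and has no test. H19 stood at 133, 722, 435 and 325 in these libraries, which was 0.0978, 0.114, 0.0889 and 0.114 of the weighted sum. IGF2 was at 1.15 to 1.33 of its sum, IGF2R at 0.984 to 1.41, PHLDA2 at 0.824 to 1.25, PEG10 at 1.01 to 1.36 and MEST at 0.865 to 1.04. CDKN1C was lower, at 0.562 to 0.732. Of the 7 genes, H19 was the one whose level in FaDu pH 7.4 replicate 1 stood far above that in the other libraries with the same label once their FaDu share was allowed for.

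**Figure D3:**
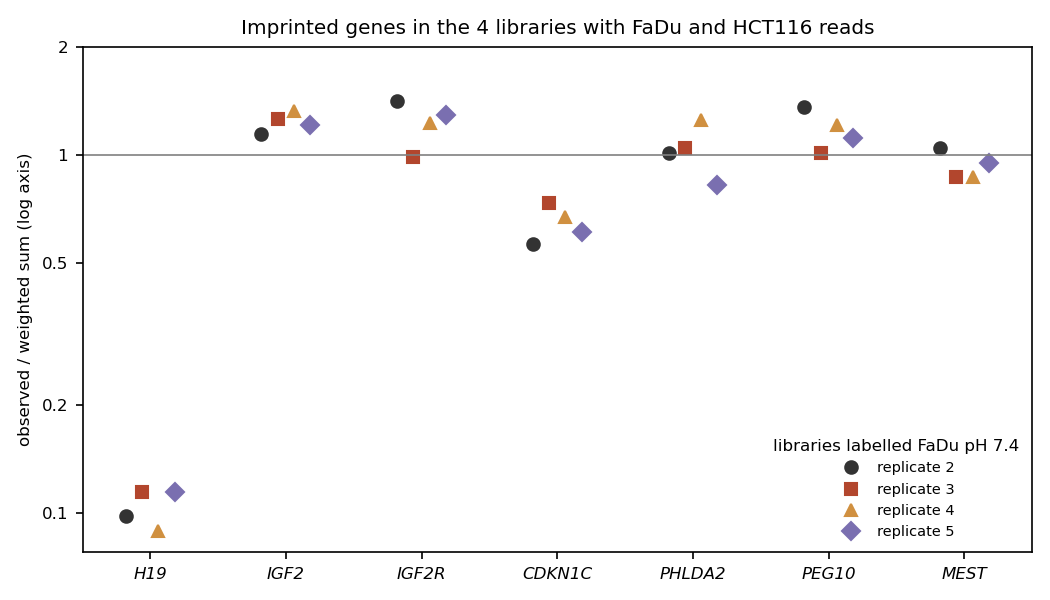
Observed normalised count over the weighted sum of FaDu pH 7.4 replicate 1 and the HCT116 pH 7.4 mean (log axis) in the 4 libraries labelled FaDu pH 7.4 that hold reads of both lines. A value of 1 means that the mixture of the lines gives the observed count. H19 lies at 0.0889 to 0.114 and the other 6 genes at 0.562 to 1.41.

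FaDu replicate 1 also stood apart in other genes. VIM was at 44.8 in FaDu pH 6.5 replicate 1, against 2.08 to 4.42 in the other pH 6.5 libraries, and at 36.2 in pH 7.4 replicate 1. Without pH 6.5 replicate 1 the number of genes called in FaDu was 7039 in place of 1411, and the H19 difference was 3.17 in place of 2.69. What part this library has in the H19 range was not tested.

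For several members, the 3 libraries labelled HCT116 pH 6.5 with SiHa reads followed the makeup of each library. Replicates 6 and 7, in which SiHa genes were at their full level, held H19 at 50.1 and 65.7, MEST at 408 and 439, PEG10 at 16.2 and 13.5 and IGF2R at 11583 and 9893. These lie within or close to the ranges of SiHa at pH 6.5, while IGF2, at 37.0 and 7.92, was above its SiHa range. CDKN1C, at 275 and 570, was below its SiHa range at pH 6.5, where the lowest value was 621. PHLDA2 was above its SiHa highest of 2215 in replicate 6, at 2409, and within the range in replicate 7, at 1770. Replicate 5 held IGF2 at 1187, IGF2R at 5986 and PEG10 at 166, between the lines. SiHa pH 7.4 replicates 6 and 7 held H19 at 531 and 402 and MEST at 1121 each, on the side of the other SiHa libraries at pH 7.4, but CDKN1C at 1605 and 389.

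The genes most like H19 in pattern were found over the 6 group means, as the smallest root mean square difference of log2 values centred on each gene's own mean, among 22127 genes. Among the closest were SLC13A3, a transporter of dicarboxylates (0.69), ESR1, the estrogen receptor (0.74), NOVA1, a splicing factor of neurons (0.77), and ANKRD2, a gene known from muscle (0.82). ESR1 averaged 484 in FaDu at pH 6.5, 135 in FaDu at pH 7.4 and at most 5.87 in the other groups. The genes most like IGF2 were CEROX1 (0.41), the potassium channel gene KCNH2 (0.65), ENSG00000235070 (0.71), the mucin gene MUC3A (0.77) and the RNA-binding protein gene MSI1 (0.78). KCNH2 averaged 573 and 628 in HCT116 at pH 6.5 and pH 7.4, 42.4 and 5.49 in FaDu, and at most 3.03 in SiHa. MUC3A has near-identical copies, so its counts are uncertain.

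Beyond the members, 60 of 73 genes on a list of genes reported as imprinted in human or mouse were matched to the table. In FaDu 0 of 42 tested rose and 2 fell by limma, against 4.24 and 3.12% of all genes. At an unadjusted p under 0.05, 1 was higher and 10 lower, while edgeR called 0 higher and 2 lower and DESeq2 0 higher and 4 lower. The adaptor gene GRB10, which dampens insulin and IGF receptor signals, fell to 1140 ± 220 at pH 6.5 (SD, n = 5), against 3072 in the single library at pH 7.4, a log2 change of −1.45 ± 0.24 (limma adjusted p = 0.021). CPA4, a carboxypeptidase gene, fell by 3.33 ± 0.78 on the log2 scale (limma adjusted p = 0.047). Both calls were lost when any one of replicates 3 to 5 at pH 6.5 was left out (adjusted p = 0.054 to 0.12), and that of CPA4 also without replicate 2. The median log2 change over the 42 genes was −0.04, against −0.01 over all genes tested in FaDu.

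In HCT116 7 of 44 rose and 5 fell, against 9.11 and 11.1% of all genes, and their median was 0.01, against −0.01 over all genes. DIRAS3, a growth-restraining Ras-like gene that is read from the paternal copy, rose to 462 ± 93.4 at pH 6.5, against 62.5 ± 11.1 at pH 7.4 (SD, n = 2 and 5), a log2 change of 2.87 ± 0.24 (limma adjusted p = 8.48e-06). PON3, a lactonase gene in the cluster of PEG10 and SGCE, rose by 1.77 ± 0.26 and NAP1L5 by 1.30 ± 0.23. PON2 of the same cluster rose by 0.68 ± 0.17, while PEG10 beside them stood at 0.08 ± 0.23. The PON2 call was lost without pH 6.5 replicate 3 (adjusted p = 0.13). SLC22A2, a transporter gene near IGF2R, had 0 reads in both kept libraries at pH 6.5 and 2.46 to 27.5 normalised counts at pH 7.4, which is at least 3.37-fold lower against a floor of 3 reads per library. FAM50B fell, with 2 reads in all at pH 6.5 and 52 at pH 7.4, a ratio of 0.105 with a 95% exact interval of 0.0124 to 0.398. AMPD3, an AMP deaminase gene, fell by 1.36 ± 0.23 on the log2 scale. The changes of SGCE, PON3, NAP1L5 and FAM50B turned round with all libraries as labelled, when SiHa reads enter the pH 6.5 group, and that of DIRAS3 was then 1.11 and not called (adjusted p = 0.41). The SLC22A2 call was lost without pH 6.5 replicate 1 (adjusted p = 0.063).

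In SiHa 3 of 36 rose and 8 fell, against 15.0 and 16.2% of all genes, with a median of −0.21 against −0.01 over all genes. DIO3, which inactivates thyroid hormone, and its antisense partner DIO3OS lie in the imprinted cluster of MEG3. DIO3OS fell to 13.6 ± 6.12 at pH 6.5, against 221 ± 86.9 at pH 7.4 (SD, n = 5 and 3), a log2 change of −3.94 ± 0.34 (limma adjusted p = 4.73e-05). DIO3 fell by 3.27 ± 0.51, from the same strand-blind counts, so the 2 genes may share reads. CMKLR2, a receptor gene, fell by 4.51 ± 0.95 and CPA4 by 3.64 ± 0.30. ASCL2, a transcription factor gene in the cluster of IGF2 and CDKN1C, held 3 reads at pH 6.5 and 37 at pH 7.4, a ratio of 0.0483 with a 95% exact interval of 0.00954 to 0.153. PXDC1, ZNF331 and GRB10 rose by 0.96 ± 0.13, 0.73 ± 0.12 and 0.38 ± 0.12, GRB10 to 338 ± 28.8 against 258 ± 7.75, opposite to its fall in FaDu. The GRB10 call in SiHa was lost without pH 6.5 replicate 5 or 6 or pH 7.4 replicate 1, 4 or 5 (adjusted p = 0.064 to 0.10), and as labelled the change was 0.20 and not called (adjusted p = 0.33). KCNQ1OT1, the antisense RNA of the CDKN1C domain, was not called in any line, with log2 changes of 0.82 in FaDu, 0.19 in HCT116 and −0.52 in SiHa. It passed in FaDu without pH 6.5 replicate 1 (1.06, adjusted p = 0.0034) and in SiHa without pH 6.5 replicate 5 (−0.71, adjusted p = 0.0084) or as labelled (−0.54, adjusted p = 0.047), while in FaDu it was −0.69 as labelled (adjusted p = 0.19).

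**Figure D4:**
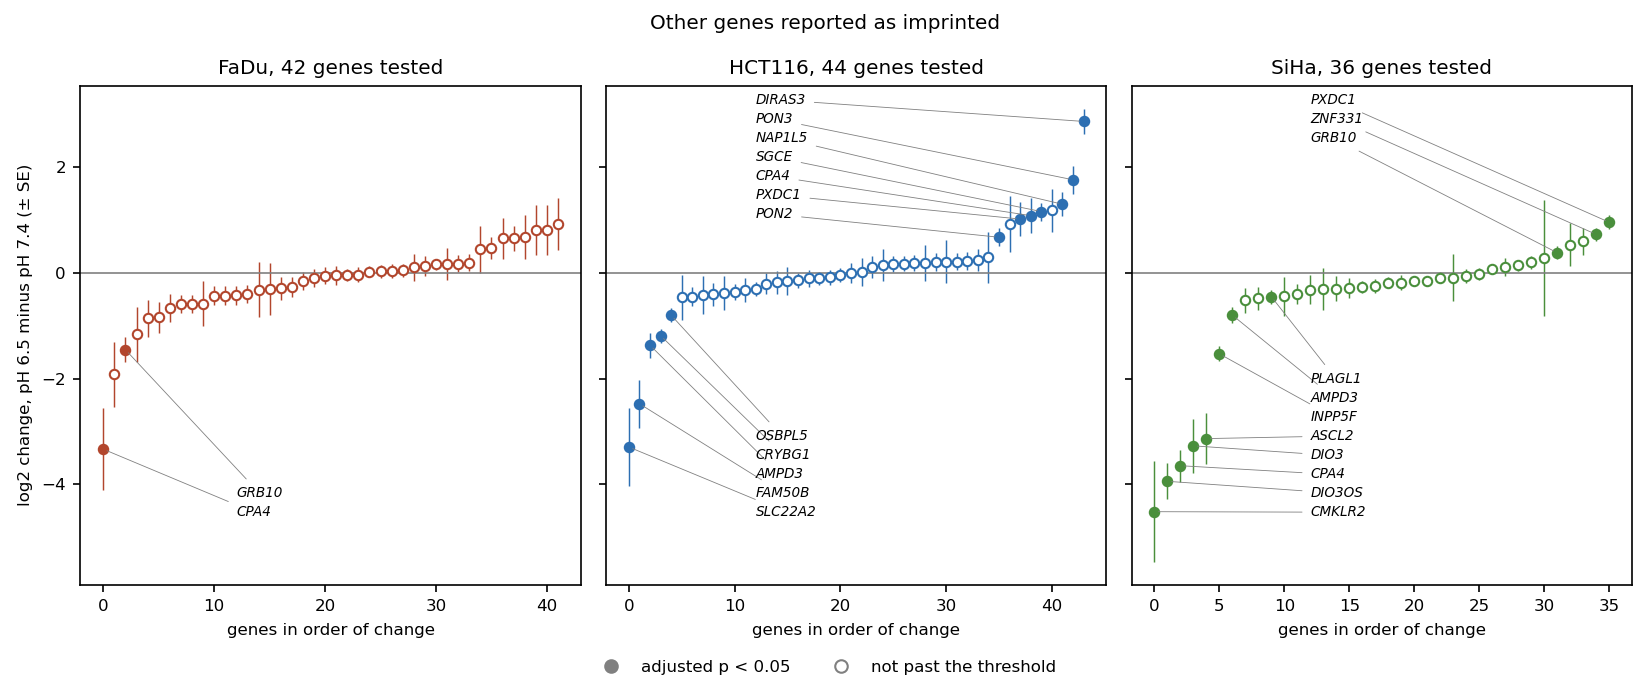
Log2 change, pH 6.5 minus pH 7.4, with its standard error for the genes reported as imprinted outside the 8 members, in order of change within each line. Filled circles passed an adjusted p under 0.05 (limma). In FaDu 2 genes passed and both fell, in HCT116 7 rose and 5 fell, and in SiHa 3 rose and 8 fell.

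The list of imprint maintenance and DNA methylation held 22 genes, 19 of them in the table. In FaDu 0 of 16 tested rose or fell by limma or edgeR, with 2 higher at an unadjusted p under 0.05, and DESeq2 called 2 higher. In HCT116 0 of 17 rose and 4 fell by limma, by edgeR and by DESeq2, with 0 higher and 5 lower at an unadjusted p under 0.05. DNMT3B, which sets new DNA methylation, fell to 426 ± 56.8 at pH 6.5, against 1358 ± 289 at pH 7.4 (SD, n = 2 and 5), by 1.65 ± 0.20 on the log2 scale (limma adjusted p = 0.00017). TET3 and TET1, enzymes that oxidise methylated cytosine, fell by 0.95 ± 0.15 and 0.81 ± 0.23. In SiHa 7 of 16 rose and 1 fell. The shares of all genes that rose and fell were 4.24 and 3.12% in FaDu, 9.11 and 11.1% in HCT116 and 15.0 and 16.2% in SiHa. SMC1A of the cohesin ring rose by 0.85 ± 0.15, the silencing factor SMCHD1 by 0.55 ± 0.18 and the histone methyltransferase EZH2 by 0.54 ± 0.13, and DNMT3A, a sister enzyme of DNMT3B, fell by 0.45 ± 0.14. CTCF, which binds the control region of H19 and IGF2, rose by 0.29 in SiHa (limma adjusted p = 0.032), with log2 changes of −0.01 in FaDu (0.0042 with TMM scaling) and −0.14 in HCT116 that did not pass. The CTCF call was lost without pH 6.5 replicate 5 or 6 or any one of pH 7.4 replicates 1, 4 and 5 (adjusted p = 0.060 to 0.11) and as labelled (adjusted p = 0.062), and that of TET1 as labelled too (adjusted p = 0.084). The TET1 call was lost without pH 6.5 replicate 1 or any of pH 7.4 replicates 3, 5, 6 and 7 (adjusted p = 0.050 to 0.25). The calls of SMCHD1 and DNMT3A were lost without pH 6.5 replicate 4 or 5 or pH 7.4 replicate 1 or 5 (adjusted p = 0.054 to 0.17), that of SMCHD1 also without pH 6.5 replicate 6 or 7 and that of DNMT3A without pH 7.4 replicate 4. The medians of this list were 0.09 in FaDu, −0.14 in HCT116 and 0.25 in SiHa, against −0.01 over all genes in each line.

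Of 24 further genes of the IGF system, 1 of 19 tested rose and 2 fell in FaDu, 5 of 17 rose and 2 fell in HCT116, and 4 of 20 rose and 4 fell in SiHa, with medians of 0.14, 0.06 and 0.12, against −0.01 over all genes in each line. The shares of all genes that rose and fell were 4.24 and 3.12%, 9.11 and 11.1%, and 15.0 and 16.2% in these lines. IRS1, the docking protein of the insulin and IGF receptors, rose by 1.17 ± 0.20 in FaDu (limma adjusted p = 0.022) and fell by 2.95 ± 0.17 in HCT116 (limma adjusted p = 3.56e-07), to 2171 ± 551 against 16664 ± 2106 (SD, n = 2 and 5). The receptor gene IGF1R fell by 0.51 ± 0.13 in HCT116. The binding proteins IGFBP3 and IGFBP6 rose by 2.52 ± 0.65 and 1.52 ± 0.37 in HCT116, and PLAG1, a transcription factor known to act on IGF2, rose by 1.07 ± 0.33. In SiHa IGFBP5 rose by 2.98 ± 0.28 and IGFBP4 by 0.97 ± 0.16, while IGFBP6 fell by 2.31 ± 0.37. IGF2BP3, which binds IGF2 and other mRNAs, rose by 2.44 ± 0.24 in SiHa and its relative IGF2BP1 fell by 0.50 ± 0.11. HMGA2, an architectural chromatin factor, held 4 reads in SiHa at pH 6.5, against 88 at pH 7.4 (log2 change −3.97 ± 0.57). In FaDu STC2, a secreted inhibitor of the protease that frees IGFs from binding proteins, fell by 3.43 ± 0.52 and IGF2BP2 by 1.03 ± 0.22. The FaDu calls of IRS1 and IGF2BP2 were lost without any one of pH 6.5 replicates 2 to 5 and that of STC2 without replicate 3 or 4 (adjusted p = 0.054 to 0.11). In HCT116 those of IGF1R, IGFBP3, IGFBP6 and PLAG1 were lost without pH 6.5 replicate 1 (adjusted p = 0.069 to 0.23), those of IGFBP3 and PLAG1 also without replicate 3, and that of PLAG1 without pH 7.4 replicate 3, 5 or 6. As labelled, IRS1 in FaDu turned to −1.15 (adjusted p = 0.0998), and IGF1R (−0.019, adjusted p = 0.95) and IGFBP6 (0.68, adjusted p = 0.31) in HCT116 were not called.

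Of the other cyclin-dependent kinase inhibitors, CDKN1A, known as p21, fell in FaDu by 1.83 ± 0.30 and in SiHa by 1.41 ± 0.48 and rose in HCT116 by 1.04 ± 0.18, where CDKN1C was not called. In all, 0 of 7 rose and 1 fell in FaDu by each of limma, edgeR and DESeq2, also at an unadjusted p under 0.05, 3 rose and 0 fell in HCT116 (likewise 0 lower by each tool and unadjusted), and 4 rose and 2 fell in SiHa. CDKN1B and CDKN2C rose in HCT116 by 0.59 ± 0.13 and 0.64 ± 0.19, and CDKN2C, CDKN3 and CDKN2D in SiHa by 1.26 ± 0.12, 0.86 ± 0.17 and 0.70 ± 0.16, while CDKN2B fell there by 0.72 ± 0.15. The CDKN1A call was lost in FaDu without any one of pH 6.5 replicates 2 to 5, and in SiHa without pH 6.5 replicates 4 to 7 or pH 7.4 replicate 1 or 5, each left out alone (adjusted p = 0.050 to 0.19). In HCT116 the calls of CDKN1B and CDKN2C were lost without pH 6.5 replicate 1 (adjusted p = 0.070 and 0.085), and that of CDKN2C also without pH 6.5 replicate 3 or pH 7.4 replicate 3, 5 or 6. As labelled, CDKN1A in HCT116 turned to −0.29 (adjusted p = 0.75). The shares of all genes that rose and fell were 4.24 and 3.12% in FaDu, 9.11 and 11.1% in HCT116 and 15.0 and 16.2% in SiHa. The list medians were −0.26 in FaDu, 0.53 in HCT116 and 0.58 in SiHa, against −0.01 over all genes in each line.

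Markers of cell types moved with pH beside the members, and their part in the results was not tested. Of 10 squamous markers, 4 of 9 tested rose in HCT116, with KRT6A, KRT5 and KRT14 up by 5.66, 5.24 and 4.26, and S100A2 fell by 0.91. Their sum was 10995 and 18233 at pH 6.5 and 14536 to 23478 at pH 7.4. Of 10 colon markers, VIL1 (−4.30), CDH17 (−1.96) and EPCAM (−0.61) fell in HCT116 and KRT20 rose by 1.83, with sums of 10444 and 11180 at pH 6.5 and 14027 to 15689 at pH 7.4. In SiHa 5 of 8 squamous markers fell, among them KRT6A (−2.95), TP63 (−2.93) and CSTA (−2.07), and EPCAM fell by 2.85. In FaDu CSTA (−1.998), KRT17 (−0.85) and DSG3 (−0.81) fell, with a squamous sum of 319030 to 508462 at pH 6.5 and 600894 at pH 7.4. Of 12 fibroblast markers, LUM (−3.65), DCN (−3.61) and VIM (−3.40) fell in SiHa and FBN1 rose by 2.08, with sums of 1397 to 3624 at pH 6.5 and 3117 to 4494 at pH 7.4. VIM and COL6A3 rose in HCT116 by 2.05 and 1.11 and FBN1 fell by 1.40, and FBN1 rose in FaDu by 0.95. Of these markers, CDH17, VIM, COL6A3 and FBN1 in HCT116 lost their call without pH 6.5 replicate 1, CSTA, KRT17, DSG3 and FBN1 in FaDu without replicate 3, 4 or 5 at pH 6.5, and CSTA, DCN, VIM and TP63 in SiHa without pH 7.4 replicate 5 (adjusted p = 0.057 to 0.20). As labelled, KRT6A, KRT5, KRT14, CDH17, EPCAM, VIM, COL6A3 and FBN1 in HCT116 were not called (adjusted p = 0.062 to 0.87).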

How the data were processed

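Reads per gene were measured by RNA sequencing in 30 libraries of 3 lines. Per the submitters' processing notes the tools were bcl2fastq 2.20, FastQC, Trimmomatic 0.38, STAR 2.6.1d and DESeq2 1.22.2, on GRCh37. For the counting program, strand setting and annotation, the sources used here give nothing. The deposited values, in the unit signal, are counts divided by a size factor per library: 100% of values lay within 0.01 of a whole multiple of the library's step, so whole reads were recovered. Symbols matched 35466 identifiers.

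The members, gene lists, tests and libraries kept apart were chosen with earlier results of these data known. In each line limma compared log2(value + 1) between pH 6.5 and pH 7.4, over genes whose mean reached 10 in either group, 2-sided, with Benjamini-Hochberg adjustment over all genes tested and a threshold of 0.05. The F-test and the contrasts of lines came from 1 fit over the 21 kept libraries. The fits were tested on simulated data. Up to 3 genes per list, line and direction were named by size of change among those called, and others named beside them (SGCE, PON2, DIO3, ASCL2, CTCF, KCNQ1OT1, IGF2-AS and AIRN) were chosen after their values were seen. Replicate numbers were not used in the main fits, and whether they pair the libraries was not settled. Deviations of same-numbered kept libraries correlated at 0.048 to 0.32. For replicate 1 this was 0.32 in SiHa and 0.17 in HCT116, against at most −0.14 and −0.015 with another number. SiHa replicates 4 and 5 were at 0.048 and 0.079, against 0.021 and 0.067, and HCT116 replicate 3 at 0.055, against 0.12. FaDu, with 1 kept library at pH 7.4, could not be checked. Alternatives were another pseudocount, no filter, TMM scaling, edgeR, DESeq2, 1 fit, a replicate block and all libraries as labelled. Each kept library was also left out in turn, except FaDu pH 7.4 replicate 1, the only one of its group. A line's genes had at least 10 counts per M in each library of 1 group of that line (FaDu pH 6.5, HCT116 pH 7.4 or SiHa pH 6.5). They were nearly absent in those groups of the other lines. R 4.3.3, limma 3.58.1, edgeR 4.0.16, DESeq2 1.42.0 and Python 3.11.15 were used.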

Additional observations from a re-analysis of the deposited data

Results flagged for a closer look

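In 3 of 21 sets of 5 kept libraries examined, 1 library lay far from the rest of its set. Each set is 1 gene in FaDu pH 6.5, HCT116 pH 7.4 or SiHa pH 6.5, so the sets share libraries and are not independent. Chance alone marks some such sets, and how many was not worked out. PHLDA2 stood at 3091 in FaDu pH 6.5 replicate 1, with the next library at 1881, and at 9614 in HCT116 pH 7.4 replicate 6, with the next at 6915. IGF2 stood at 3.42 in SiHa pH 6.5 replicate 7, with the next at 1.79, a level of 1 to 4 reads at which counting error is large.

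The pH effect differed between the lines for IGF2 (limma F-test adjusted p = 0.000114), IGF2R (adjusted p = 0.000418) and MEST (adjusted p = 0.0018). For H19 every kept FaDu library at pH 6.5 was above the pH 7.4 library and every kept HCT116 and SiHa library at pH 6.5 was below those at pH 7.4. The log2 difference of FaDu minus that of HCT116 was 4.14, and minus that of SiHa 5.19. These differences for H19 were not tested, since H19 was selected on them.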

How the results depend on the processing

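Of 97 log2 changes, TMM scaling moved none across the threshold. Changes that kept their sign lost their call for 2 with pseudocount 10, 3 in edgeR, 3 in DESeq2 and 15 with no filter. The same held for 13 in 1 fit over all kept libraries and 14 as labelled. Calls were gained for 2 in DESeq2, 1 in that fit and 6 as labelled. CTCF in FaDu, near 0, was 0.0042 with TMM, 0.013 in edgeR and 0.0030 in DESeq2. With all libraries as labelled, 20 turned sign, with the same values under the replicate block on those libraries: IGF2 to −1.80 in FaDu and −1.79 in HCT116, IGF2R to 0.40, PHLDA2 to −0.73, PEG10 to −2.53, PON3 to −0.85, NAP1L5 to −1.32, FAM50B to 1.76, CDKN1A to −0.29, KRT20 to −0.29, SGCE to −2.02 and CTCF to 0.14 in HCT116, CDKN1C to 0.052, IRS1 to −1.15, CSTA to 0.14, KRT17 to 1.60, DSG3 to 1.22, KCNQ1OT1 to −0.69 and CTCF to 0.13 in FaDu, and PHLDA2 to 0.035 in SiHa. In FaDu and HCT116 the libraries added carry reads of another line, while SiHa pH 7.4 replicates 6 and 7 held next to none. None of the 20 was called as labelled. Those of them that were called in the kept libraries, such as IGF2, IGF2R and SGCE in HCT116, thus lost their call too, beyond the 14. With the replicate block on the kept libraries PEG10 in SiHa was 0.086, 10 calls were lost (TET1, PLAG1, IGFBP3, IGF1R, VIM, FBN1 and PON2 in HCT116, GRB10, DNMT3A and CTCF in SiHa, adjusted p = 0.053 to 0.37), and that fit could not be made in FaDu, where no residual degrees of freedom remain. Whether the numbers pair the libraries was not settled, and the block took the calls to 2927 in HCT116 and 5237 in SiHa. In FaDu 1411 of 19170 genes were called, 2602 in 1 fit, 2659 in DESeq2, 1368 in edgeR, 9115 as labelled and 8851 with the replicate block as labelled. HCT116 had 3819 calls and 1407 with the replicate block as labelled, and SiHa 5787. Leaving out each kept library in turn gave 66 to 7039 calls in FaDu, 2198 to 5150 in HCT116 and 3551 to 6473 in SiHa. The exception was FaDu pH 7.4 replicate 1, which as the only kept library of its group could not be left out. How the FaDu results depend on that library was thus not examined. The FaDu extremes came without pH 6.5 replicate 4 and replicate 1, the HCT116 minimum without pH 6.5 replicate 1 and the SiHa minimum without pH 7.4 replicate 5. Over the same omissions the H19 difference was 2.44 to 3.17 in FaDu, −1.67 to −1.22 in HCT116 and −2.68 to −2.38 in SiHa. Its direction could not turn, since its groups did not overlap in any line, so the kept sign is no check. Uncalled genes crossed 0: KCNQ1OT1 in HCT116 (−0.53 to 0.92), CTCF in FaDu (−0.032 to 0.026), CDKN1C in HCT116 (−0.54 to 0.25), PHLDA2 in HCT116 (−0.13 to 0.75) and SiHa (−0.15 to 0.15), and PEG10 in HCT116 (−0.35 to 0.51) and SiHa (−0.51 to 0.33). IGF2 in FaDu also missed the threshold with pseudocount 10 (adjusted p = 0.055) and with no filter (adjusted p = 0.074). Depth limits MEG3 in all lines and IGF2 in SiHa, which stand at a few reads.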
